A study of Caenorhabditis elegans with 5 samples.

Results

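The 309 LIN-42 sites described here are the peaks of LIN-42::GFP replicate 1 that overlapped, by at least 1 bp, a peak of LIN-42::GFP replicate 2 and also a peak of endogenous LIN-42. They were selected on the overlap of the 3 lists, and they are 309 of the 946 peaks of replicate 1 (32.7%, 95% Wilson interval 29.8% to 35.7%) among 4654 peaks in all. Because the lists chose them, their tags, lengths and summits are described and not tested. All 3 ChIP libraries came from *C. elegans* of strain HML214, which carries a GFP tag, grown at 20°C with OP50 bacteria and collected as late L4 larvae. Replicates 1 and 2 were precipitated with an antibody against GFP (abcam 290), and a single library, with no replicate, with an antibody against LIN-42 itself (KEA/11 Rabbit 2). Input DNA of the same strain was sequenced in 2 samples. The labels name the same strain and tag for all 5 samples, and no ChIP from animals without tagged LIN-42 or lacking LIN-42 was analysed here. Endogenous LIN-42 is the name of the list made with the LIN-42 antibody, and tagged and untagged LIN-42 were not told apart in it. The header of that list names no input control.

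LIN-42 is the worm homolog of PERIOD, a protein of the circadian clock in insects and mammals, and it belongs to the heterochronic genes, which set the order of cell fates through the larval stages. In a ChIP-seq experiment, DNA that is crosslinked to a protein is recovered with an antibody and sequenced, and each aligned read is called a tag. The program MACS marks a stretch of the genome where tags pile up as a peak, and the position of the highest pile within it is the summit.

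The libraries held 2268716 aligned tags of endogenous LIN-42, 833169 of LIN-42::GFP replicate 1 and 4334100 of replicate 2. MACS kept a single tag per position, which removed 94.6%, 95.4% and 99.0% of them and left 122089, 38236 and 43991 tags, in the same order of libraries. Tag counts of peaks are counts after this removal, and a short peak offers fewer positions than a long one. A peak held at least 5 tags in the endogenous list and at least 4 in the LIN-42::GFP lists, so that a site absent from a list was not detectable at such numbers, which does not make it unbound. The sites overlapped 315 of the 2580 peaks of replicate 2 (12.2%) and 300 of the 1128 peaks of endogenous LIN-42 (26.6%). In replicate 1, 41.8% of peaks overlapped a replicate 2 peak with or without an endogenous one. The peaks that the sites overlapped held 10969 tags of endogenous LIN-42, which is 57.1% of the tags in all peaks of that library. They held 5739 tags in replicate 1 (58.5%) and 6342 in replicate 2 (34.0%). All coordinates are those of genome build ce10, and the intervals given here cover counting error only.

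Sites found in all 3 lists carried more tags than other replicate 1 peaks. In replicate 1 they had a median of 13 tags (interval 11 to 14), against 8 (7 to 10) for the 86 peaks found in both LIN-42::GFP lists only. The 92 peaks found in replicate 1 and the endogenous list only had a median of 7 tags (6 to 8), and the 459 found in replicate 1 only had a median of 4. Of the 334 replicate 1 peaks with 4 tags, 15 were sites of all 3 lists (4.49%, interval 2.74% to 7.28%). That share was 30.5% of the peaks with 6 or 7 tags, 63.9% of the 108 peaks with 11 to 15 tags and 83.7% of the 43 peaks with 31 tags or more. None of the peaks with 31 or more tags was found in replicate 1 only. Of the 50 replicate 1 peaks with the most tags, 42 were sites of all 3 lists, as were 41 of the 50 highest in replicate 2 and 37 of the 50 highest in the endogenous list.

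**Figure D1:**
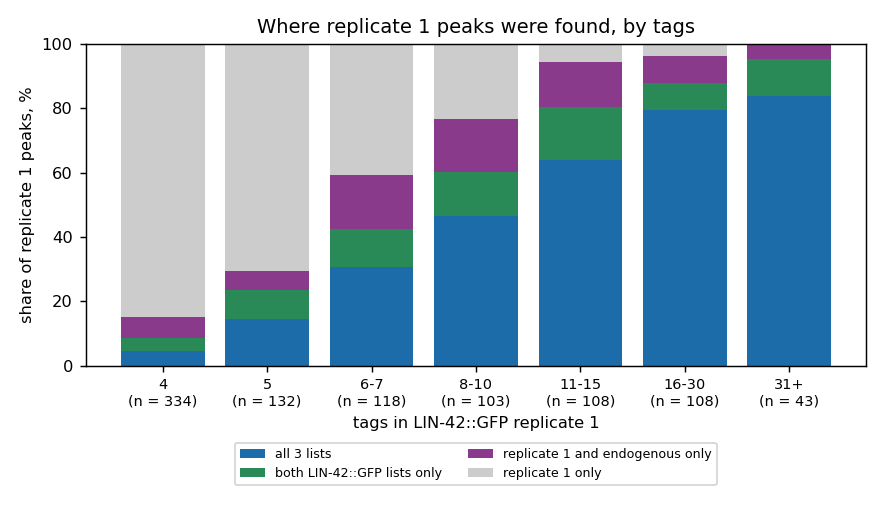
Share of replicate 1 peaks (vertical axis, %) in each class of tag count (horizontal axis, with the number of peaks), divided by the lists in which they were found. The share found in all 3 lists was 4.49% at 4 tags and 83.7% at 31 tags or more.

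The 309 sites fall into narrow and wide ones. At 151 sites (48.9%, interval 43.3% to 54.4%) the peak was at most 200 bp long in every list, and at the other 158 it was longer in at least 1 list, a limit set after the lengths had been seen. Among narrow sites, the intron 2 of 3 of F59D12.2 (chromosome X, 15674280 to 15674438) had 45 tags of endogenous LIN-42, 47 in replicate 1 and 54 in replicate 2. At C04F12.7 the peak in intron 1 of 2 (chromosome I, 9696321 to 9696486) held 49 endogenous tags, 43 in replicate 1 and 58 in replicate 2. Both sites, which were named for their values after these had been seen, had the most tags in replicate 2. Their summits lay within 9 and 2 bp of each other. The non-coding gene K09F5.11 had its site downstream (chromosome X, 7718011 to 7718160), with 46 endogenous tags, 42 in replicate 1 and 51 in replicate 2. W07E6.3, which RefSeq calls sms-5, had 34, 36 and 36 tags in that order at a site in intron 7 of 7 (chromosome II, 498427 to 498574).

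Tags at narrow sites, as counted after the removal of redundant tags, were close to equal across the libraries. Narrow sites had a median of 12 tags (interval 10 to 14) of endogenous LIN-42, 11 (10 to 12) in replicate 1 and 11 (10 to 12) in replicate 2. The median ratio of endogenous to replicate 1 tags was 1.12 (interval 1.00 to 1.17), where the ratio of the tags left in the libraries was 3.19. Of the 151 narrow sites 3 reached that depth ratio. By aligned tags the ratio between the libraries was 2.72 for endogenous LIN-42 over replicate 1, reached by 5 narrow sites, and 5.20 for replicate 2 over replicate 1, reached by none of the 151. The part of the limit of a single tag per position in these counts was not tested. All 3 tag counts lay within a factor of 2 at 123 narrow sites (81.5%, interval 74.5% to 86.8%), against 55 wide sites (34.8%, 27.8% to 42.5%). Across the 151 narrow sites Pearson's r between the tags of endogenous LIN-42 and of replicate 1 was 0.87 and Spearman's rho was 0.72, and between the replicates these were 0.86 and 0.74. Over all 309 sites Pearson's r was 0.79 between endogenous LIN-42 and replicate 1 and 0.63 between the replicates, with Spearman's rho of 0.70 and 0.67. At wide sites r was 0.79 and 0.58, and rho was 0.67 and 0.59, in the same order. These coefficients describe sites and not samples, and the sites share their libraries.

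Wide sites held more endogenous tags for their LIN-42::GFP tags. Their median was 27.5 tags (interval 23 to 34) of endogenous LIN-42, 15 (13 to 17) in replicate 1 and 16 (13 to 20) in replicate 2. The ratio of endogenous to replicate 1 tags had a median of 1.87 (interval 1.67 to 2.23), and 46 of the 158 (29.1%) reached the ratio of the tags left and 58 (36.7%) that of the aligned tags. By length of the longest of the 3 peaks, the median ratio was 1.12 in the 92 sites up to 150 bp, 1.35 in the 84 sites of 201 to 500 bp, 2.44 in the 26 of 501 to 1000 bp and 4.11 (3.32 to 4.92) in the 48 longer ones. A longer endogenous peak takes in more tags, so these bins are not independent of the ratio. By length in replicate 1 alone the ratio was 1.16 (1.10 to 1.21) in the 166 sites up to 150 bp and 3.36 (2.42 to 4.10) in the 18 sites over 1000 bp. In all of these ratios, an endogenous peak that overlapped several sites was counted whole at each of them. This was so at 25 of the 309 sites, all of them wide, and its part in the rise with length was not tested. The header of the endogenous list names no input control, and the part of this in the ratios was not tested. Per 100 bp of peak, narrow sites held a median of 10.2 endogenous tags and 8.26 replicate 1 tags, and wide sites 7.16 endogenous and 4.45 replicate 1 tags.

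**Figure D2:**
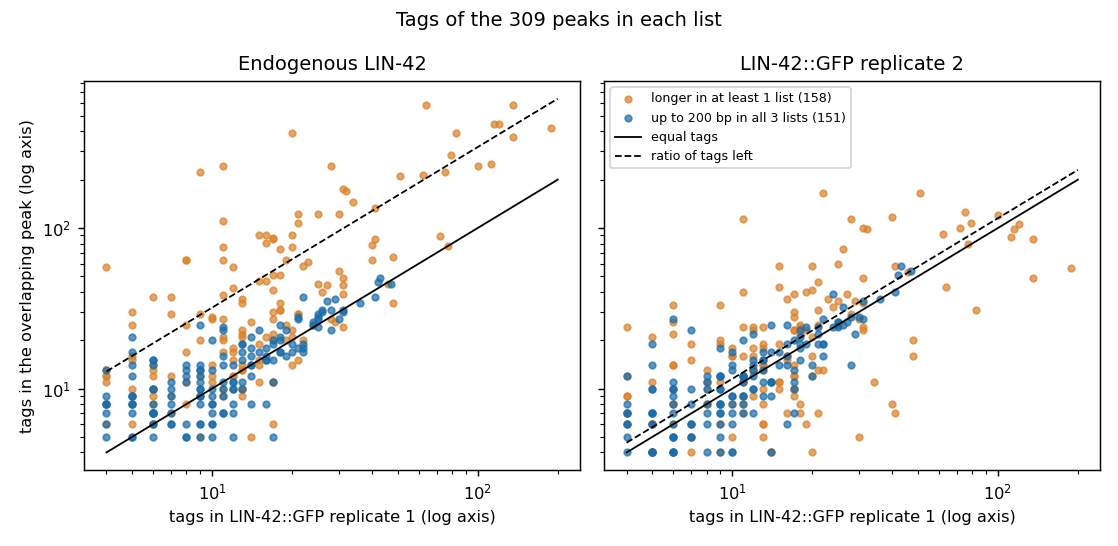
Tags in the overlapping peak of endogenous LIN-42 (left) and of LIN-42::GFP replicate 2 (right) against tags in replicate 1, on log axes, with a point per site. Blue points are the 151 narrow sites and orange points the 158 wide ones. In the left panel narrow sites follow the solid line of equal tags, and 46 wide sites reach the dashed line, which is the ratio of the tags left in the libraries (3.19 on the left, 1.15 on the right).

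The 10 sites with the most tags were all wide. Ranked by the smallest of the 3 tag counts, the first was a promoter site of R57.2 (chromosome X, 293679 to 295161), with 445 endogenous tags, 120 in replicate 1 and 106 in replicate 2. A further site of R57.2 lay beside it (292043 to 293648), with 115 tags in replicate 1 and 99 in replicate 2, and the same endogenous peak of 445 tags spanned both. The site of fbxa-221, an F-box gene (chromosome X, 111687 to 114261), had 580 endogenous tags, 136 in replicate 1 and 85 in replicate 2, and it was the longest in replicate 1 at 2575 bp. The sites downstream of Y106G6E.4 (chromosome I, 10216560 to 10219069) and in the promoter of Y95B8A.2 (chromosome I, 933490 to 934746) had 242 and 250 endogenous tags, 100 and 112 in replicate 1 and 121 and 88 in replicate 2. Those of T20G5.14, Y5F2A.3 and clec-81 had 285, 224 and 214 endogenous tags, 79, 75 and 62 in replicate 1 and 108, 125 and 92 in replicate 2. In all of these the endogenous count was the highest of the 3.

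Of the first 10 sites by tags, the 2 with endogenous and replicate 1 tags closest to equal were those of haf-7 and nspa-10. The promoter site of haf-7, an ABC transporter gene (chromosome V, 14768008 to 14768410), held 77 endogenous tags, 77 in replicate 1 and 79 in replicate 2, and its 3 summits lay within 6 bp. The site of nspa-10 (chromosome V, 14755412 to 14755741) held 89, 72 and 100 tags in that order, with summits within 11 bp. In replicate 1 the site with the most tags of all was a promoter site of Y7A5A.11, which RefSeq lists as a pseudogene (chromosome X, 15807598 to 15809725), with 418 endogenous tags, 189 in replicate 1 and 56 in replicate 2. A second site of this gene (15809821 to 15811136) held 369 endogenous tags, 136 in replicate 1 and 49 in replicate 2. The libraries thus did not rank these sites in a single order.

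Of all sites, the balance between endogenous and LIN-42::GFP tags was most uneven at wide sites that share an endogenous peak. The site downstream of fbxa-28 (chromosome III, 1299726 to 1300097) had 389 endogenous tags against 20 in replicate 1 and 12 in replicate 2, a ratio of 24.3 to the mean of the replicates. Its endogenous peak also covered the site of fbxa-75 (83 tags in replicate 1, 31 in replicate 2). The smaller site of Y5F2A.3 had a ratio of 15.4, that of Y73B3A.5 10.8, that of Y97E10B.12 7.88 and that of F14F11.2 7.24. At the other end, F43C11.9 had 6 endogenous tags against 7 in replicate 1 and 23 in replicate 2 (ratio 0.400). F16H11.7, R11B5.7, Y116A8C.9 and Y57A10A.40 followed at 0.414, 0.417, 0.452 and 0.5, with 5 to 7 endogenous tags each. Sites with so few tags lie near the smallest count that the lists hold.

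Summits of the 3 lists lay close together at most sites. The span from the first to the last of the 3 summits had a median of 13 bp (interval 11 to 14). It was at most 10 bp at 134 sites (43.4%), at most 20 bp at 194 (62.8%) and at most 200 bp at 255 (82.5%, interval 77.9% to 86.4%). The distance from the endogenous to the replicate 1 summit had a median of 6 bp, and that between the summits of the replicates a median of 9 bp. All 3 summits fell on the same base at 7 sites. Those of Y48G1BM.9 (intron 1 of 5; chromosome I, 256135 to 256280), of the non-coding gene H36N01.1 (chromosome I, 10749057 to 10749177) and of prp-6, a splicing factor gene (intron 9 of 12; chromosome V, 18036774 to 18036895), were 3 of them, and those of Y50D7A.1 and F59D12.3 were others. These 5 sites held 6 to 27 endogenous tags, 7 to 17 in replicate 1 and 7 to 12 in replicate 2.

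Narrow and wide sites differed in how well the summits met. The span had a median of 7 bp (interval 6 to 8) and a maximum of 35 bp at narrow sites, against a median of 46 bp (29 to 121) and a maximum of 3058 bp at wide sites. Of the narrow sites 90.1% had summits within 20 bp, and of the wide sites 36.7%. A short peak leaves the summits less room, so the span is bounded by the length that defines these groups. The largest span, 3058 bp, was at fbxa-221, followed by a site of R57.2 (2584 bp), fbxa-28 (2059 bp), Y34F4.1 (1977 bp) and oac-58 (1894 bp). At all 5 of these a single endogenous peak covered a neighboring site as well. The wide site of Y7A5A.11, 2128 bp long in replicate 1, was different, with its 3 summits within 13 bp.

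**Figure D3:**
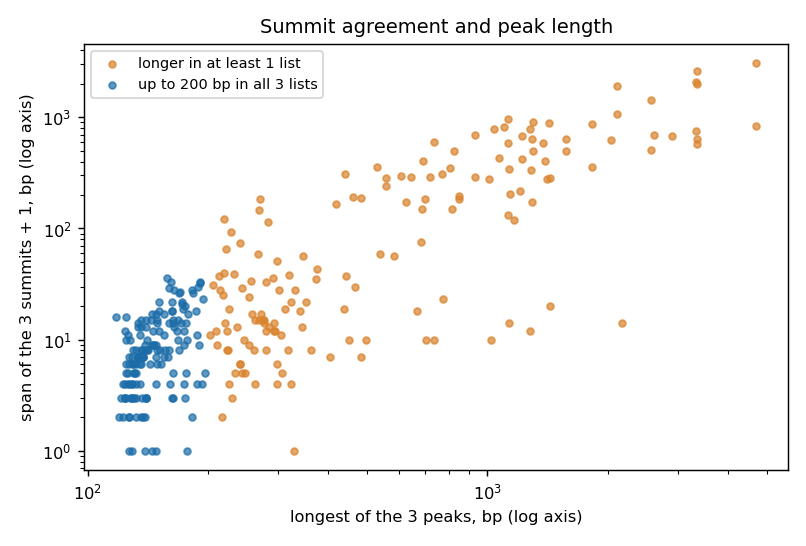
Span of the 3 summits plus 1 bp (vertical log axis) against the longest of the 3 peaks (horizontal log axis, bp), with a point per site. Blue narrow sites have spans of at most 35 bp, and orange wide sites reach 3058 bp.

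Narrow peaks are at most 200 bp long in every list by definition, so their lengths and edges had little room to differ. In the endogenous list their median length was 109 bp (interval 106 to 113), against 129 bp (127 to 131) in replicate 1 and 137 bp (134 to 140) in replicate 2. The endogenous peak started a median of 11 bp after the start of the replicate 1 peak and ended 11 bp before its end. The replicate 2 peak started 5 bp before that of replicate 1 and ended 2 bp after it. The replicate 1 summit lay at the middle of the peak, with a median distance of 0 bp and quartiles of 0 and 0.5 bp. MACS had set the fragment shift, by which it moves tags from the 2 strands toward each other, at 84 bp for endogenous LIN-42, 97 bp for replicate 1 and 99 bp for replicate 2, the same order as the lengths. The part of this setting in the lengths was not tested.

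**Figure D4:**
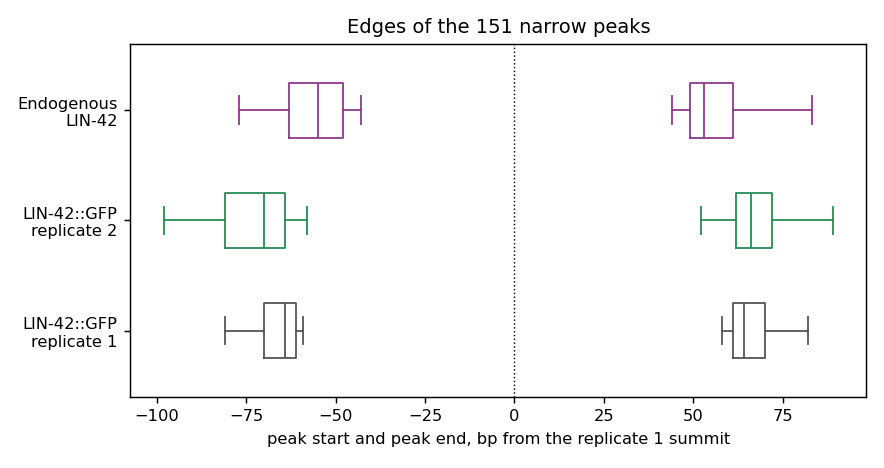
Start (left boxes) and end (right boxes) of the 151 narrow peaks in each list, in bp from the replicate 1 summit. Boxes give the median and quartiles and whiskers the 5th and 95th percentiles. By their medians the endogenous peaks lie inside those of both replicates, with median lengths of 109, 137 and 129 bp from top to bottom. Single sites can differ, and at 13 of the 151 no other list had a longer peak than the endogenous one.

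Over all sites the median length was 140 bp in the endogenous list, 146 bp in replicate 1 and 161 bp in replicate 2, and the longest peaks were 4706, 2575 and 2888 bp. Peaks of at most 200 bp made up 65.7% of the sites in replicate 1 (interval 60.2% to 70.8%) and 66.4% of the 459 peaks found in replicate 1 only (62.0% to 70.6%). They made up 41.9% of the 86 peaks found in both LIN-42::GFP lists only (32.0% to 52.4%). The median length in replicate 1 was 146 bp for the sites and 146 bp for all 946 peaks. After the site of fbxa-221, the longest in replicate 1 were those of Y106G6E.4 (2510 bp), Y7A5A.11 (2128 bp), oac-58 (2107 bp) and Y5F2A.3 (1860 bp).

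Promoters and introns of coding genes held most of the sites. By the authors' annotation of regions, 112 sites were in promoters of coding genes (36.2%, interval 31.1% to 41.7%) and 85 in their introns (27.5%, 22.8% to 32.7%). A further 70 lay downstream of a coding gene (22.7%, 18.3% to 27.6%) and 5 in a coding exon. Non-coding genes had 16 sites in their transcripts, 12 in their promoters and 9 downstream. Among the 86 peaks of both LIN-42::GFP lists only, 14 were in coding promoters (16.3%, 9.95% to 25.5%), 11 in coding introns (12.8%, 7.29% to 21.5%) and 34 downstream of coding genes (39.5%, 29.9% to 50.1%). Peaks that lie side by side share their surroundings and are not independent, and the classes were not tested. The paper counts as promoter a fixed stretch upstream of each gene. The share of the genome in each class was not measured, so these counts show no preference for a class.

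Narrow and wide sites were spread over these classes unequally. Introns held 61 of the 151 narrow sites (40.4%, interval 32.9% to 48.4%) and 24 of the 158 wide ones (15.2%, 10.4% to 21.6%). Regions downstream of coding genes held 22 narrow sites (14.6%, 9.82% to 21.1%) and 48 wide ones (30.4%, 23.7% to 37.9%). For coding promoters the intervals overlapped, at 48 narrow sites (31.8%, 24.9% to 39.6%) and 64 wide ones (40.5%, 33.2% to 48.3%). Intron sites had a median of 11 endogenous tags and 12 in replicate 1, and promoter sites of coding genes 20.5 and 16. At genes that RefSeq lists as pseudogenes lay 3 narrow and 13 wide sites.

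**Figure D5:**
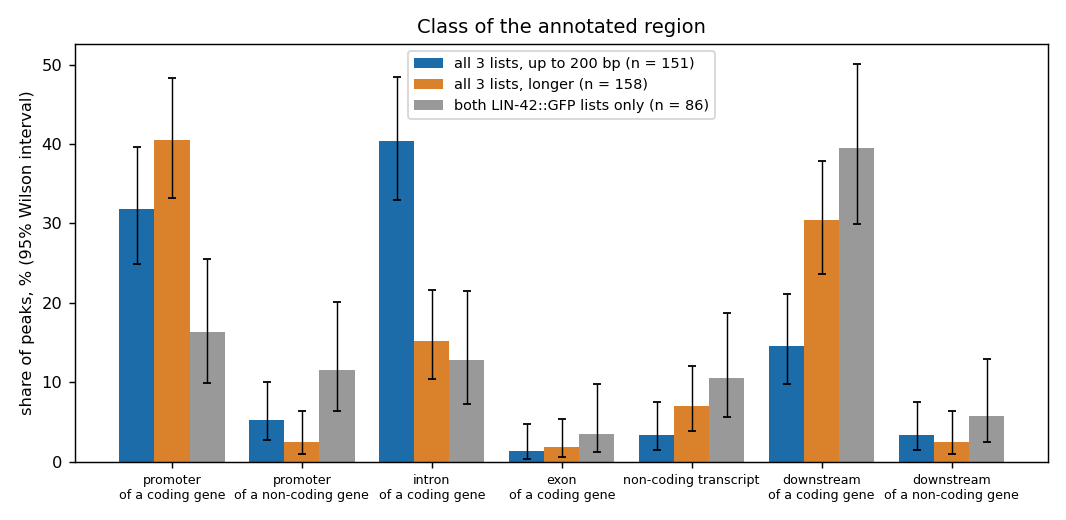
Share of peaks (%, with 95% Wilson intervals) in each class of the authors' annotation, for narrow sites, wide sites and, in grey, the 86 peaks found in both LIN-42::GFP lists only. Introns held 40.4% of the narrow sites, 15.2% of the wide sites and 12.8% of the grey group.

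The 309 sites were closest to 279 genes, which is 85.3% of the 327 genes closest to a LIN-42::GFP peak of both replicates. Counts by function are out of the listed genes with such a peak, and are read against that share. The gene lists were made from the authors' annotation with its endogenous LIN-42 column in view, so that their counts are no evidence for any function. All 18 listed genes of transcription factors and chromatin proteins had a site, 12 of these sites being narrow. At dve-1, which encodes a homeodomain protein that acts in mitochondrial stress, the site held 30 endogenous tags, 26 in replicate 1 and 25 in replicate 2, with summits within 5 bp (chromosome X, 430874 to 431022). Intron 1 of 4 of zip-6, a bZIP factor gene, held 27, 30 and 28 tags in that order (chromosome IV, 11215784 to 11215920). The site downstream of lin-65 held 24, 25 and 26 tags (chromosome I, 1766625 to 1766766). At these genes the 3 libraries gave nearly the same number.

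Most other regulators on that list had fewer tags. At pha-4, whose FoxA protein specifies the pharynx, the promoter site had 5 endogenous tags, 8 in replicate 1 and 8 in replicate 2, with summits within 2 bp. In intron 10 of 11 of lag-1, the effector of Notch signaling, the counts were 8, 12 and 10. The dosage compensation gene sdc-1 had 10, 9 and 8 tags in intron 1 of 13. The site of unc-30, which specifies GABAergic neurons, was wide and uneven, with 86 endogenous tags, 41 in replicate 1 and 7 in replicate 2 and a span of 342 bp. Sites of ceh-37 (20, 19 and 23 tags), nsy-7 (17, 22 and 19), efl-2 (14, 13 and 13), hlh-11 (14, 14 and 11) and ell-1 (17, 12 and 13) lay between these.

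Protein kinase genes had a site at all 8 listed genes, and 7 of these sites were narrow. The promoter site of dapk-1, a death-associated protein kinase gene (chromosome I, 1302498 to 1302640), held the most tags of them, with 44 of endogenous LIN-42, 27 in replicate 1 and 39 in replicate 2. At dkf-2, from the protein kinase D family (chromosome V, 16757573 to 16757732), the site held 28, 21 and 22. At kin-20, which encodes the worm relative of Doubletime, a kinase of the fly clock (chromosome X, 15275405 to 15275529), the counts were 14, 5 and 19, so that the replicates differed more than the endogenous library did from either. The tyrosine kinase gene src-1 had 16, 11 and 12 tags in intron 4 of 5, and tlk-1, dkf-1, pat-4 and the insulin receptor gene daf-2 had 6 or 7 endogenous tags each, with 4 to 11 in replicate 1 and 4 to 11 in replicate 2.

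Genes of neuronal signaling, chemoreceptor genes and F-box genes had sites as well. Of the 14 listed genes of neuronal signaling and channels, 11 had a site. The ligand-gated channel gene lgc-42 had 26 endogenous tags, 24 in replicate 1 and 24 in replicate 2, with summits within 5 bp. In intron 1 of 12 of acy-1, an adenylyl cyclase gene, these were 18, 22 and 16 tags, within 3 bp. In nlp-21, a neuropeptide gene, they were 10, 12 and 14. No endogenous peak overlapped the peaks of cha-1, egl-47 and igcm-4, whose counts were 5 to 7 tags in replicate 1 and 5 in replicate 2. All 10 chemoreceptor genes had a site, with 2 at srab-12, and that of srg-30 held 19 endogenous tags, 20 in replicate 1 and 14 in replicate 2, within 2 bp. F-box genes had 9 of 10, and 3 of their 9 sites were narrow. The site of lin-23, whose F-box protein restrains the cell cycle, was narrow and lay in intron 1 of 7 (15, 16 and 19 tags).

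Genes of general cell functions had sites as well. Of the 7 listed genes of RNA processing and germline RNA regulation all 7 had a site, and 7 of their 8 sites lay in introns. The splicing factor gene phf-5 had 24 endogenous tags, 31 in replicate 1 and 24 in replicate 2 in intron 2 of 2, and puf-4, which RefSeq lists as a pseudogene, had a pair of wide sites with 4 and 8 tags in replicate 2. Vesicle traffic genes had 8 of 9, with 27 endogenous tags, 21 in replicate 1 and 24 in replicate 2 downstream of agef-1, an Arf exchange factor gene, and 10, 6 and 9 tags in intron 2 of 4 of the small GTPase gene rab-35. Metabolic enzymes had 10 of 10, and the 3 sites of alh-12, an aldehyde dehydrogenase gene, were wide. Cytoskeleton and adhesion genes had 11 of 11, with 7 of the 11 sites in introns, and the site of hmr-1, a cadherin gene, held 8, 10 and 4 tags. Membrane transport genes had 4 of 6 and genes of DNA repair and telomeres 3 of 4. The sites of these 3 lay in introns of msh-6, mrt-2 and cku-70, with 8 to 23 endogenous tags, 5 to 13 in replicate 1 and 6 to 24 in replicate 2.

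Of the 4 listed microRNA and heterochronic genes with a LIN-42::GFP peak of both replicates, 3 had a site, kin-20 and a pair of microRNA genes. The annotation placed a site in the promoter of mir-2213 (chromosome III, 6968135 to 6968306), with 9 endogenous tags, 9 in replicate 1 and 11 in replicate 2. A wide site lay downstream of mir-239.2 (chromosome X, 11788060 to 11789288), with 123 endogenous tags, 30 in replicate 1 and 27 in replicate 2 and summits within 19 bp. It lies beside the sites of Y102F5A.1. The let-7 microRNA gene was not among the sites. Its peak of both replicates held 11 tags in replicate 1 and 8 in replicate 2, with no endogenous peak there.

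Most genes had a single site. Of the 279 genes 23 were closest to 2 or more sites, oac-58 to 4, and alh-12, C23H5.10, F14F11.2, Y106G6E.8 and Y97E10B.12 to 3 each. The 3 sites of the non-coding gene C23H5.10 were well apart and narrow, and they had 28, 14 and 31 endogenous tags, 25, 14 and 31 in replicate 1 and 26, 11 and 35 in replicate 2. At most of the other genes the sites lay side by side. Taking sites within 2000 bp of each other as a locus, there were 277 loci, of which 253 held a single site and 24 held 2 to 4 sites. Those 24 loci held 56 sites, 2 of them narrow. The same endogenous peak served more than 1 site at 25 of the 309 sites, and the same replicate 2 peak at 18, while each narrow site had peaks of its own. The genes with 2 sites each were R57.2, Y102F5A.1, Y34F4.1, Y53G8AR.1, Y5F2A.3, Y62H9A.7, Y73F4A.1, Y7A5A.11, Y95B8A.2, ZK218.8, ZK384.6, acs-16, clec-9, mrpl-38, nspa-10, puf-4 and srab-12.

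The sites lay on all 6 chromosomes. Chromosome III had 63 of them, which is 42.9% of its replicate 1 peaks (interval 35.1% to 50.9%), and the other chromosomes had between 27.4% (chromosome II, 34 sites) and 34.0% (chromosome V, 64 sites). The span of each chromosome was taken up to the last peak end of any list. The central 50% of these spans held 88 sites (28.5%, 23.7% to 33.8%), against 252 of the other 637 replicate 1 peaks (39.6%, 35.8% to 43.4%). The share was lower among the sites than among the other peaks on each of the 6 chromosomes, from 22.2% against 33.3% on chromosome III to 35.6% against 40.6% on chromosome IV. Among narrow sites it was 21.9%, and among wide sites 34.8% (27.8% to 42.5%). The median gap between neighboring sites of a chromosome was 153220 bp.

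A site lay at the left end of every chromosome. The first site of each began within 13 bp of the first base, at positions 13, 1, 4, 9, 2 and 6 of chromosomes I, II, III, IV, V and X, in that order of chromosomes. On chromosome II it ended at 379 and its closest gene was the telomeric transcript cTel52S.1, with 30 endogenous tags, 17 in replicate 1 and 39 in replicate 2. The sites at cTel3X.2 on chromosome V (2 to 253) and cTel7X.2 on chromosome X (6 to 275) held 21 and 45 endogenous tags, 11 and 25 in replicate 1 and 24 and 60 in replicate 2. On chromosome I the site nearest to Y74C9A.3 (13 to 451) held 78, 40 and 117 tags, on chromosome III that nearest to fbxa-6 (4 to 140) 13, 9 and 18, and on chromosome IV that nearest to Y38C1AB.4 (9 to 147) 15, 6 and 27. At all 6 of these sites replicate 2 held the most tags and replicate 1 the fewest. On the right, distances are to the last peak end of any list and not to the end of the chromosome. The last site of chromosome I, nearest to F31C3.13 (15070831 to 15071249), ended with the last peak of any list. That of chromosome V, in intron 2 of 8 of ttll-9 (20910831 to 20911103), ended 26 bp before the last peak end of that chromosome. It had 45 endogenous tags, 46 in replicate 1 and 53 in replicate 2. On the other chromosomes the last site ended farther from the last peak of any list, by 16623 bp on chromosome II, 997335 bp on III, 397330 bp on IV and 87898 bp on X.

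With an overlap of at least 50% of each peak required in place of 1 bp, 226 of the sites were left. The fewest shared bases were 8, at a site downstream of Y97E10AL.1 (chromosome V, 7989195 to 7989532), with 14 endogenous tags, 10 in replicate 1 and 5 in replicate 2. The next 4 sites, at Y53G8AR.10, pqn-41, mrpl-38 and pha-4, shared 88, 89, 91 and 91 bases with the list they overlapped least. All but that of mrpl-38 were narrow. At pqn-41, mrpl-38 and pha-4 the endogenous peak lay wholly inside the replicate 1 peak, so these numbers are its length. The mrpl-38 site (chromosome I, 1029930 to 1030048) overlapped 97 bp of a replicate 2 peak 270 bp long, and its summits spanned 182 bp. Just outside the limit, a peak at Y54F10AM.7 (chromosome III, 2500591 to 2500744) lay 1 bp from the nearest replicate 2 peak, and that at Y32H12A.9 (chromosome III, 5354453 to 5354746) 37 bp from the nearest endogenous peak. Those at Y95D11A.4 and Y73B3A.5 lay 105 and 114 bp from a replicate 2 peak, and that at fbxa-28 lay slightly farther from one. Only 2 of the other 637 replicate 1 peaks came within 100 bp of the peak they lacked.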

How the data were processed

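The ChIP-seq data comprise 2 LIN-42::GFP replicates and 1 library of endogenous LIN-42. The authors aligned reads of 76 nucleotides to ce10 with Bowtie2, retained those with a unique alignment and ran MACS 1.4.2 at a p-value of 1e-05 in each library alone. The deposited headers name an input control for each LIN-42::GFP list and none for the endogenous list. The run name in the header of the endogenous list ends in nocontrol, which marks this deposited list as called without an input control. The paper describes input controls for all of its peak calls, which differs from this header. Each deposited peak has a raw count of its tags. The deposited score was derived by MACS from the p-value. The fold enrichment, a ratio to the background that the authors' caller estimated, is not on a common scale between lists and was used only to rank peaks. The false discovery rate in percent is deposited for the LIN-42::GFP lists.

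Overlaps took at least 1 bp, and a site with several partners was given the one with the largest overlap. Gene and class came from the authors' annotation of regions, whose intron numbers need not count from the start site. Of the 279 genes 269 matched a name in RefSeq (assembly WBcel235), which served for symbols and biotypes only. No test was run. Shares have 95% Wilson intervals, and medians have order-statistic intervals, both of which take peaks as independent. The members and lists were chosen with earlier results of these data known. Named are the 10 sites with the largest smallest tag count, the 5 with the smallest and the largest summit span, the 5 longest, genes with 2 or more sites, members of 12 gene lists, the 5 with the fewest overlapping bases and the 5 peaks nearest to overlap, and the 5 most uneven in each direction. F59D12.2, C04F12.7, K09F5.11, W07E6.3, and the sites at chromosome ends are outside that rule and were added once their values were known. The overlap function was tested on simulated data. The scripts ran in Python 3.11.15 with pandas 2.3.3, NumPy 2.4.6, Matplotlib 3.10.9 and SciPy 1.17.1. Sequences of the sites and the input libraries were not used here.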

Additional observations from a re-analysis of the deposited data

How the results depend on the processing

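No paired analysis was possible because no result comes from a test. The number of sites, 309, was 214 to 314 under the other 8 definitions. Leaving out a replicate gave 401 to 407 sites. The promoter share, 40.1%, stayed within its interval under the 8 definitions (35.3% to 40.6%). It was not computed without a replicate, since the annotation does not cover every peak of a replicate. Of 72 values compared with those of the main setting, 23 moved out of the range set for them and 49 did not. Each median given below for one of the 8 definitions lay outside the interval of the main one. Requiring 50% of each peak gave medians of 0.137 kb of length, 9 bp of summit span and 14 endogenous tags. Summits within 200 bp gave 0.138 kb, 10 bp and 14 tags, and leaving out clustered peaks gave 0.1365 kb, 9 bp and 14 tags. A p-value of 1e-10 or less gave 0.137 kb, 9 bp and 14.5 tags in replicate 2. The median length, 0.146 kb for the sites as defined, was 0.1635 kb with the replicate 2 peak, 0.135 kb with the endogenous peak and 0.2015 kb with the union region as the unit. Without a replicate it was 0.147 to 0.165 kb, the summit span 7 to 10 bp, now of 2 summits, the median 11 tags in either replicate and 14 to 16 endogenous tags. With limits of 150 and 300 bp, added after seeing the data, 92 and 207 sites were narrow, with ratios of endogenous to replicate 1 tags of 1.12 and 1.14, against 1.54 and 2.88 at wide sites. Depth limits the sites to peaks of at least 4 tags, so absence from a list is not absence of binding.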
